A study of Mus musculus with 39 samples.

Results

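The pre-B and B-cell receptor signal chain was followed through 8 genes listed by name, Cd79a, Cd79b, Blk, Lyn, Syk, Btk, Blnk and Plcg2, and 7 of them were measured among the 12393 genes of the arrays. They were found by matching each gene symbol to probe sets, short DNA probes on the array that read 1 transcript together, and 9 of 20380 single-gene probe sets matched, 3 of them for Syk. Lyn, a Src-family kinase, was not analysed here. RNA came from B220+ cells of adult mouse bone marrow sorted on CD43, IgM and IgD: 6 arrays of normal pro-B cells (CD43+ IgM- IgD-), 8 of normal pre-B cells (CD43- IgM- IgD-), 6 of normal immature B cells (CD43- IgM+ IgD-) and 3 of normal mature B cells (CD43- IgM+ IgD+). The remaining 16 arrays carried cells of the pre-B gate that the cell type label of the MLL-AF4 study calls leukemic, and for 5 of them (A992, A1322, A1507, 270 and A46) the labels state that leukemia followed pIpC, an interferon-inducing RNA analogue. The description of array 116 names an Mll-AF4stop knock-in mouse and does not mention leukemia, so that array is leukemic by its title and cell type label alone, and the main counts are also given without it. Strain, sex, the Cre line if any, and the number of animals behind each normal array are not given in the labels.

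The pre-B receptor pairs an immunoglobulin heavy chain with the surrogate light chain, and the later B-cell receptor replaces the surrogate with a true light chain. Neither can signal by itself: the Cd79a and Cd79b chains carry the tyrosine motifs that Src-family kinases such as Blk phosphorylate, Syk docks on those motifs, and the adaptor Blnk then brings Btk and the phospholipase Plcg2 together so that calcium and diacylglycerol signals follow. The pre-B receptor drives a burst of division and then helps to end it, and Blnk and Btk are known in mice as brakes on the growth of pre-B cells.

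All levels below are log2 intensities of the probe set with the highest mean for each gene, and all differences are differences of mean log2 intensity. A gene was called where limma gave a Benjamini-Hochberg adjusted p under 0.05 over all 12393 genes. The sample accessions fall into 2 runs of 22 and 17 arrays that no label explains, with 12 leukemic arrays in run 1, 4 in run 2 and the mature B arrays in run 2 alone. The 3' to 5' difference of the beta-actin control probe sets, a sign of RNA length, was 1.18 to 1.46 in run 1 and 0.60 to 1.12 in run 2. Leukemic array 122 stood apart from the other leukemias in early B-lineage genes, so results that rest on it are also given without it. Of 6 listed B-lineage markers 5 were measured, and none lay below 4.19, the 25th percentile of all values, as a group mean. Summed myeloid marker intensity was 14.68 to 15.15 in pro-B, 12.75 to 14.61 in pre-B and 9.27 to 14.25 in leukemic arrays, with Itgam, a defining marker, under that percentile in every group. In bulk RNA of this kind, fewer cells that express a gene and less RNA of it per cell cannot be told apart.

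**Figure D1:**
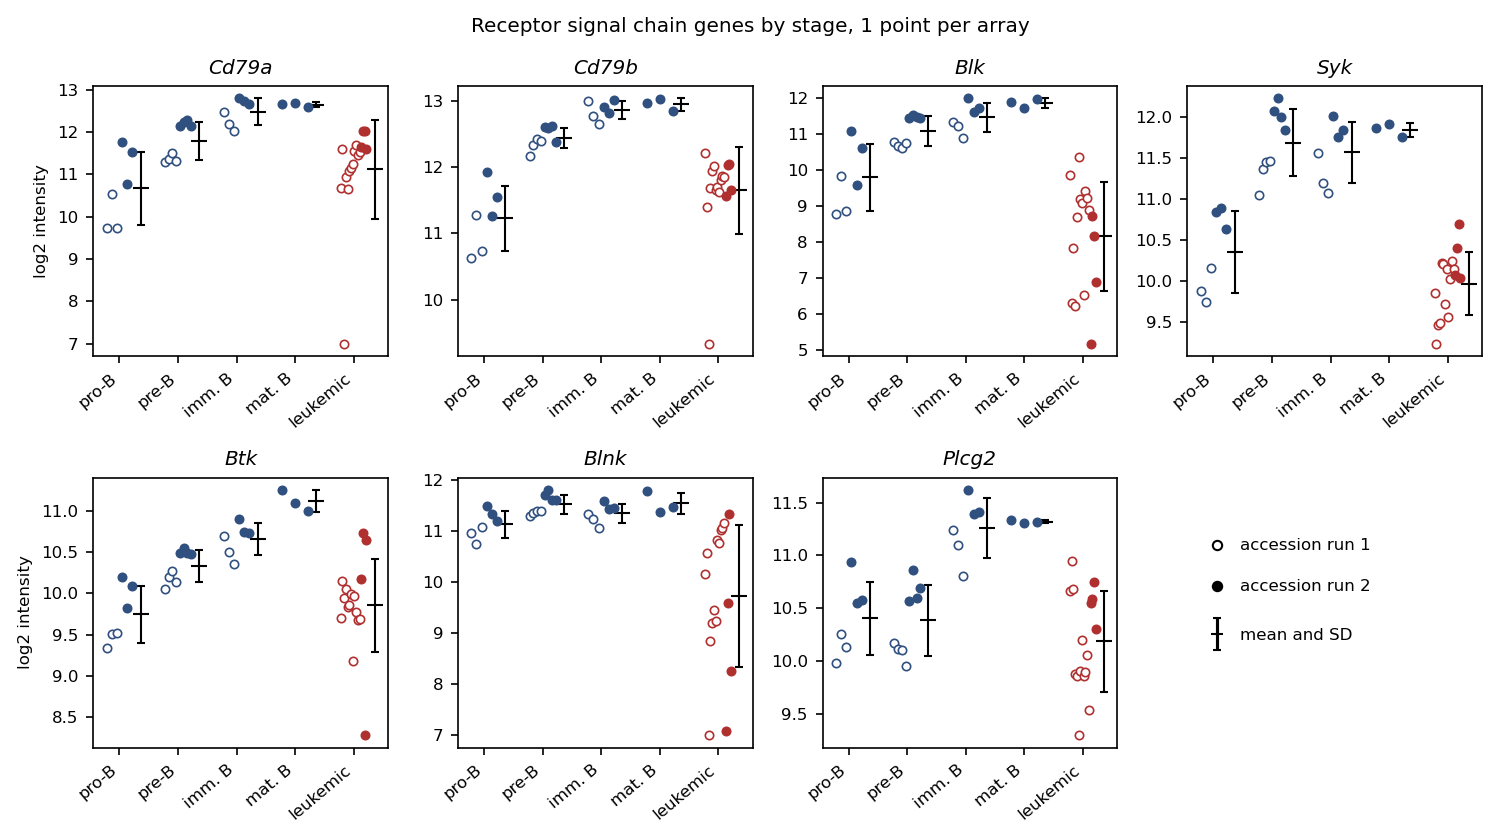
Log2 intensity (y axis) of each of the 7 measured genes by cell group (x axis), with 1 point per array, open for accession run 1 and filled for run 2, and the group mean with its SD. Blk and Syk lie lower on all 16 leukemic arrays than on any of the 8 normal pre-B arrays, while Plcg2 overlaps.

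Blk, Btk, Blnk, Syk, Cd79a and Cd79b, 6 of the 7 genes, rose between the normal pro-B and pre-B stages, against 17.9% of all genes called higher in that comparison. The exception was Plcg2. Syk was 9.74 at the lowest, 10.40 at the median and 10.88 at the highest in pro-B arrays, and 11.05, 11.65 and 12.22 in pre-B arrays, so the groups did not overlap. Syk rose by 1.33 (SE 0.20, limma adjusted p = 2.05e-05). Cd79b ran from 10.63 through 11.27 to 11.93 in pro-B and from 12.18 through 12.42 to 12.62 in pre-B arrays. It too did not overlap and rose by 1.21 (SE 0.14, limma adjusted p = 5.16e-07). Complete separation of these 8 pre-B arrays above every pro-B array was seen for 3.74% of all genes. Blk rose by 1.30 and Cd79a by 1.11, with 4 of 8 pre-B arrays above every pro-B array in each. Btk rose by 0.59 and Blnk by 0.39. Plcg2 was 10.40 ± 0.35 (SD, n = 6) in pro-B and 10.38 ± 0.33 (n = 8) in pre-B arrays, a difference of -0.02 (interval -0.34 to 0.30). The same 6 genes were called within each run, but with all 39 arrays in 1 fit Blk (limma adjusted p = 0.0865), Cd79a (0.07) and Blnk (0.572) were not. Pro-B arrays also held more marker signal of other cells. Lower in pre-B arrays were 8 of 10 myeloid, 5 of 5 plasmacytoid dendritic and 8 of 8 T and NK cell markers. Of all 12393 genes, 1948 were called lower. The part of the other cells in the differences was not tested.

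From pre-B to immature B, 2 of 7 genes were called higher, against 10.9% of all genes. Plcg2 went from 9.95, 10.37 and 10.86 (lowest, median and highest) in pre-B to 10.81, 11.32 and 11.62 in immature B arrays. Of the 6 immature arrays 5 lay above every pre-B array, and the rise was 0.88 (SE 0.16, limma adjusted p = 1.82e-04). Plcg2 was the 1 gene of the 7 not called at the step before. Cd79b rose by 0.42 (limma adjusted p = 0.0365), and all 6 immature arrays lay above every pre-B array, but the call was lost in 9 of 23 fits with 1 array left out (0.38 to 0.43 without any of pre-B 4 to 8 or immature 1 to 4) and within each run (0.47 and 0.37). Cd79a (0.69, adjusted p = 0.0733) and Btk (0.32, adjusted p = 0.0764) were not called by limma. Cd79a was called without pro-B array 1 (0.69) and Btk without immature array 6 (0.39), and with the run as a covariate both were, which made 4 genes. Between immature and mature B cells 0 of 7 genes were called by limma, against 5.25% of all genes in either direction. Only Btk passed at an unadjusted p under 0.05, as did 2048 of all genes. Btk was 11.25 on mature array 1 and 11.10 on array 2, and all 3 mature arrays lay above the highest immature array at 10.90 (difference 0.46, adjusted p = 0.124). The share of all genes that separate completely was not counted for either of these steps.

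The means of Cd79a, Cd79b, Blk and Btk were ordered from pro-B, the lowest, through pre-B and immature B to mature B, the highest. None of their steps from immature to mature B was called. Within run 2, which holds all mature arrays, the Cd79a mean was 12.74 in immature and 12.65 in mature B, so that last step had the opposite sign. Syk (10.36, 11.68, 11.57 and 11.84 in that order) and Blnk (11.14, 11.53, 11.35 and 11.54) rose up to the pre-B stage, and none of their later steps was called. Run 2 arrays lay above all run 1 arrays of the same normal stage for Cd79a, Syk, Btk, Blnk and Plcg2 in all 3 stages that both runs hold, by 0.27 to 1.36, so within-run values are given beside the leukemic results.

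Against normal pre-B cells, the leukemic cells had less Blk, Blnk, Syk and Cd79b RNA, whereas Cd79a, Btk and Plcg2 were not called. That is 4 of 7 genes called lower and 0 higher, against 7.53% of all genes called lower and 8.50% called higher. Without array 116 the same 4 genes were called, with Blk at -3.04, Blnk at -1.83, Syk at -1.71 and Cd79b at -0.83. The median difference of the 7 was -0.79 and that of all genes -0.007. The called genes were a receptor chain, the Src-family kinase, Syk and the adaptor. Of markers of other cells, 5 of 10 myeloid, 3 of 5 plasmacytoid dendritic, 1 of 3 erythroid, 2 of 8 T and NK and 1 of 4 plasma cell markers were also lower, and 0 were higher. Of the B-lineage markers 2 of 5 were lower, Ms4a1 by 1.72 (-1.72, limma adjusted p = 0.0183) and Rag1, a recombinase subunit, by 1.60 (-1.60, adjusted p = 0.0215), and neither was called within run 1, nor Rag1 within run 2. The summed B-lineage signal of 10 of 16 leukemic arrays lay below every pre-B array, and its part in the lower chain genes was not tested.

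Among the receptor chains, Cd79a was 11.30, 11.82 and 12.29 (lowest, median and highest) in pre-B and 7.0, 11.49 and 12.04 in leukemic arrays. Of 16 leukemic arrays 7 lay below every pre-B array, and the difference was -0.67 (SE 0.40, interval -1.50 to 0.16, limma adjusted p = 0.315). Without array 122, the array at 7.0, it was -0.39 (adjusted p = 0.145), and within run 2 alone it was -0.37 and called (adjusted p = 0.0467). Cd79b, the partner chain, was 12.18, 12.42 and 12.62 in pre-B and 9.33, 11.76 and 12.22 in leukemic arrays, with 15 of 16 below every pre-B array and array 116 inside the pre-B range. It fell by 0.79 (SE 0.22, limma adjusted p = 0.0138), a 1.73-fold lower intensity. Without array 122 the fall was 0.64 (-0.64, adjusted p = 7.81e-06). Within run 1 the difference was -0.74 and not called (adjusted p = 0.234), and within run 2 it was -0.73 (adjusted p = 0.004).

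The kinases next to the receptor showed the clearest separation. Blk was 10.61, 11.12 and 11.54 in pre-B and 5.18, 8.73 and 10.38 in leukemic arrays, so no leukemic array reached the pre-B range. The mean was 7.62-fold lower (-2.93, SE 0.51, limma adjusted p = 1.73e-04). The spread among leukemias was wide, with an SD of 1.51 against 0.42 in pre-B arrays. Syk was 11.05, 11.65 and 12.22 in pre-B and 9.24, 10.05 and 10.69 in leukemic arrays, again without overlap. It was 3.28-fold lower (-1.71, SE 0.16, limma adjusted p = 5.90e-08) with an SD of 0.39 among leukemias and 0.41 among pre-B arrays. Its other probe sets differed by -1.57 and -1.94 and were called. All 16 leukemic arrays lay below every pre-B array for 0.799% of all genes. Within run 1 Blk differed by -2.24 (limma adjusted p = 0.0452) and Syk by -1.47 (1.05e-04), and within run 2 by -4.24 (0.0026) and -1.74 (2.95e-04). Blk and Syk were the only genes of the 7 called in run 1 alone.

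Btk, the Tec-family kinase that activates Plcg2, was 10.05, 10.37 and 10.55 in pre-B and 8.28, 9.90 and 10.74 in leukemic arrays. Below every pre-B array lay 11 leukemic arrays, and above every pre-B array 2, and the difference of -0.48 (interval -0.88 to -0.07) was not called (limma adjusted p = 0.106). Blnk, the adaptor, was 11.29, 11.5 and 11.81 in pre-B and 7.0, 9.88 and 11.34 in leukemic arrays, with 15 of 16 below every pre-B array. It was 3.47-fold lower (-1.80, SE 0.47, limma adjusted p = 0.00799), with an SD of 1.40 among leukemias against 0.19 among pre-B arrays. Without array 122 the difference was -1.61 (adjusted p = 0.0065), and within run 1 it was -1.42 and not called (adjusted p = 0.16), and within run 2 it was -2.62 (adjusted p = 0.0404). Plcg2, which cleaves membrane lipid into inositol trisphosphate and diacylglycerol, was 9.95, 10.37 and 10.86 in pre-B and 9.30, 10.13 and 10.94 in leukemic arrays. The groups overlapped, and the difference was -0.20 (interval -0.57 to 0.17, limma adjusted p = 0.548). When the average myeloid marker level entered the fit, 4 genes were called as before, with Cd79b at -1.19, Blk at -3.12, Syk at -1.86 and Blnk at -2.33. Cd79a then differed by -1.25 and was not called (limma adjusted p = 0.0742).

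**Figure D2:**
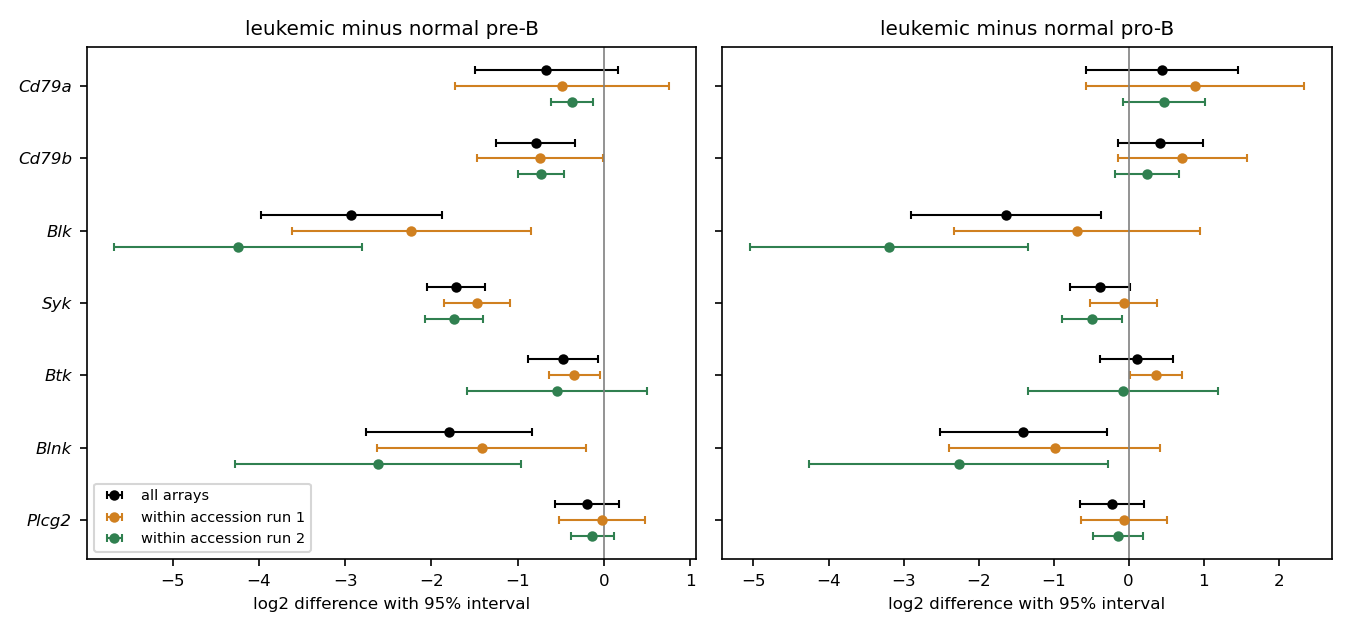
Mean log2 difference (x axis) of leukemic arrays from normal pre-B arrays (left) and from normal pro-B arrays (right) for each gene, with 95% intervals from limma, over all arrays and within each accession run. Against pre-B the intervals of Blk and Syk lie below 0 in every subset, and against pro-B the intervals of Cd79a and Plcg2 include 0 in every subset.

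Compared with normal pro-B cells, 0 of 7 genes were called by limma, against 15.7% of all genes called in either direction. At an unadjusted p under 0.05, 2 of the 7 and 4377 of all genes passed. Both leukemic comparisons share the 16 leukemic arrays. Lower than in pro-B arrays were 7 of 10 myeloid, 5 of 5 plasmacytoid dendritic and 7 of 8 T and NK markers. Of all 12393 genes, 945 were called lower. The part of cells with these markers in the differences was not tested beyond the myeloid covariate. Blk was 8.78, 9.73 and 11.10 in pro-B arrays, and 9 leukemic arrays lay below every pro-B array (difference -1.63, adjusted p = 0.0681). Blnk was 10.75, 11.14 and 11.49 in pro-B arrays, with 10 leukemic arrays below them all (-1.41, adjusted p = 0.0718). Both were called by limma when all 39 arrays entered 1 fit (adjusted p = 0.0173 and 0.0175). How often leukemic arrays lay below every pro-B array was not counted over all genes. Syk differed by -0.39 (interval -0.79 to 0.01). In a limma fit of all probe sets, the other Syk probe sets differed by -0.52 (adjusted p = 0.0591) and -0.77 (adjusted p = 0.0302, called lower). Plcg2 differed by -0.22 (interval -0.64 to 0.20). Btk differed by 0.11 (interval -0.38 to 0.59). Cd79a was 0.44 and Cd79b 0.42 above pro-B, neither called. Without array 122 both were called, Cd79a at 0.72 (limma adjusted p = 0.0488) and Cd79b at 0.58 (0.00845). Without array A992 Blk was called lower, at -1.78 (limma adjusted p = 0.047).

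To state which step was low in which leukemia, a gene was counted low on an array where its value was under all 8 normal pre-B values and at least 1 log2 unit under their mean. By this count 47 of 112 gene and array combinations were low, against 6.38% of such combinations over all genes, and the share of all genes low on a single array was 3.80% to 15.5%. None of the 112 values fell below the 25th percentile of the array values, a limit that does not measure background. Blk on arrays 270, 153 and 117 (5.18, 6.22 and 6.31) lay below every array median (6.36 to 6.76). Syk was low on 15 of 16 arrays and Blk on 15 of 16, with 14 arrays low in both. Blnk was low on 9, Cd79a on 3, Cd79b on 2, Btk on 2 and Plcg2 on 1. Each leukemic array had at least 2 low genes: 5 arrays had 2, 8 had 3, 2 had 4 and 1 had 5. Array 116 was 1 of the 2 with 4, and without it, a setting added after seeing the data, 43 of 105 combinations were low. Against pre-B arrays of the same run, an alternative chosen after seeing the data, 42 combinations were low. By that rule the share of all genes low on a single array was 3.62% to 13.6%. At 2 log2 units or more under the mean, 24 were low. The share over all genes was not counted for that limit or without array 116. Under every normal array of any stage lay 35 combinations, against 8.99% of those over all genes.

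**Figure D3:**
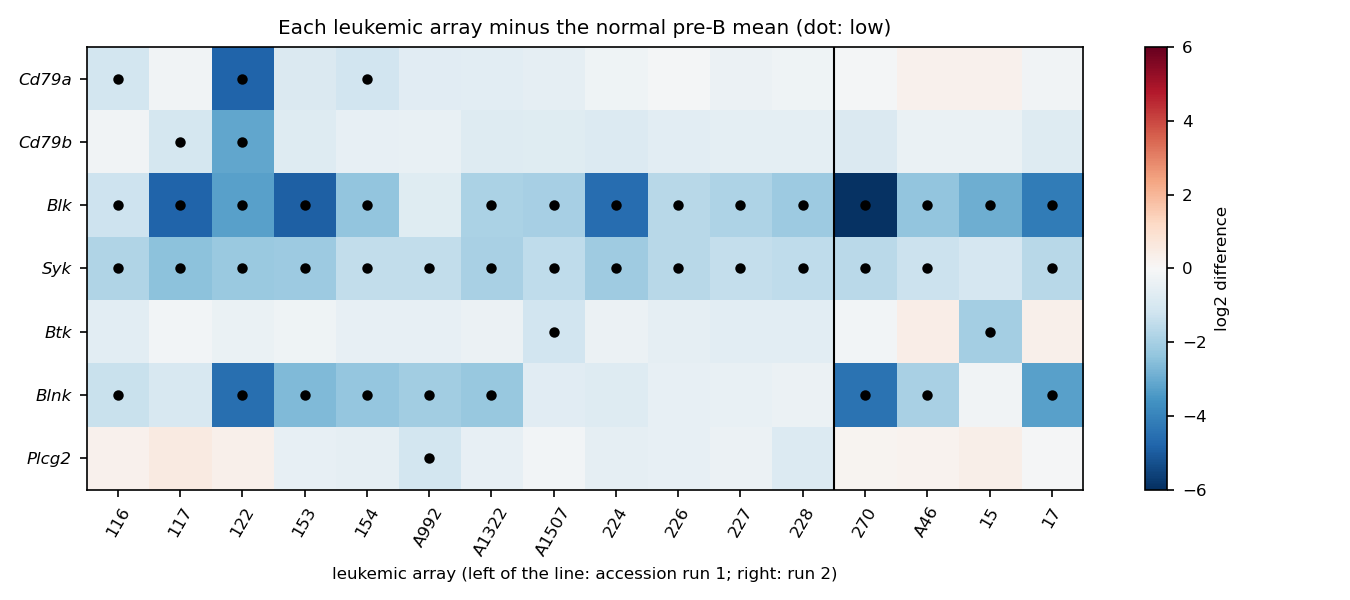
Difference of each leukemic array (x axis) from the normal pre-B mean, in log2 units by colour, for each gene (y axis), with a dot where the gene was counted low and a line between accession runs 1 and 2. The Blk and Syk rows carry 15 dots each, Blnk 9, and the Plcg2 row 1.

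Syk varied little between leukemias. Its values were 9.86, 9.24, 9.46, 9.49 and 10.22 on arrays 116, 117, 122, 153 and 154, and 10.20, 9.72 and 10.15 on A992, A1322 and A1507. They were 9.56, 10.03, 10.24 and 10.15 on 224, 226, 227 and 228, and 10.07, 10.40, 10.69 and 10.04 on 270, A46, 15 and 17. Array 15, at -1.0 after rounding, just missed the limit and met it against the run 2 pre-B arrays (-1.35). The 5 arrays 117, 122, 153, A1322 and 224 were below every normal array of any stage.

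Blk varied far more. It was 9.86, 6.31, 7.84, 6.22 and 8.72 on arrays 116, 117, 122, 153 and 154, and 10.38, 9.20 and 9.11 on A992, A1322 and A1507. It was 6.55, 9.42, 9.23 and 8.90 on 224, 226, 227 and 228, and 5.18, 8.73, 8.18 and 6.90 on 270, A46, 15 and 17. Arrays 117, 153, 224, 270 and 17 therefore lay more than 4 log2 units under the pre-B mean, whereas A992 lay 0.72 under it (-0.72) and was the 1 array not counted low. Below every normal array were 9. Array 116 (-1.24) was low against all pre-B arrays but not against those of run 1 alone.

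Blnk was counted low on 9 of 16 leukemic arrays, and its values spread without a clear break at the limit. It was 10.17, 10.57, 7.0, 8.86 and 9.21 on arrays 116, 117, 122, 153 and 154, and 9.45, 9.25 and 10.82 on A992, A1322 and A1507. It was 10.77, 11.03, 11.07 and 11.17 on 224, 226, 227 and 228, and 7.08, 9.59, 11.34 and 8.27 on 270, A46, 15 and 17. The 9 low arrays were 116, 122, 153, 154, A992, A1322, 270, A46 and 17, with or without matching by run. Arrays 122 and 270 were over 4 units under the pre-B mean (-4.52 and -4.44). Array 117 (-0.95) was the closest of those not counted low, and it lay below every normal array. On the 6 other arrays Blnk was 0.19 to 0.76 under the pre-B mean (-0.19 to -0.76), and array 15 lay within the pre-B range.

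The Blnk promoter is shown because Blnk was counted low in only part of the leukemias. The Cd79a promoter is shown because Cd79a was lowest on the array where early B-lineage genes were lowest. Both are RefSeq windows on build GRCm38.p6, from 250 bases before to 50 bases after the start of the gene, and 5 of the 7 measured genes had such an entry. Capitals mark the octamer ATTTGCAT, the motif of the Oct factors of B cells, searched on both strands.
Blnk, chr19:40994172-40994471, minus strand: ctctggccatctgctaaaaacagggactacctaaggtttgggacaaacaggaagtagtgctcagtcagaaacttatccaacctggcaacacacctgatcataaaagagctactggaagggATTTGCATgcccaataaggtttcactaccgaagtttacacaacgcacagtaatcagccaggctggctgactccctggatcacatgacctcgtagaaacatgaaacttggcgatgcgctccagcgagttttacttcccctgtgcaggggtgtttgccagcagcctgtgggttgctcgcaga
Cd79a, chr7:24897247-24897546, plus strand: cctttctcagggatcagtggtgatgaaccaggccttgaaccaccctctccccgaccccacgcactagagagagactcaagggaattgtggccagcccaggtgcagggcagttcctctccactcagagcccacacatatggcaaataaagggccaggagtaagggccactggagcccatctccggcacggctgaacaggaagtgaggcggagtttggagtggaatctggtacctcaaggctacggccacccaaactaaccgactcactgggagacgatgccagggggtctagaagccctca
The octamer occurred once in these windows, at -130 from the Blnk start, and in 1.74% of 32851 promoters of the same length. The core CCCNNGGG of the EBF1 motif, searched on both strands, was in 13.7% of promoters and in 0 of the 6 windows of the measured genes. Only exact matches were counted, so a stretch that departs from the core, such as ctcaaggg in the Cd79a window, was not. A match or its absence describes letters in the window and nothing of the factor.

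The receptor chains, Btk and Plcg2 were each low in at most 3 leukemias. Cd79a was low on 116 (10.69), 122 (7.0) and 154 (10.66), and within run 1 on 122 alone. On the other 13 arrays it was between 10.93 and 12.04. Cd79b was low on 117 (11.40, -1.04) and 122 (9.33, -3.11), and within run on 122 alone. Btk was low on A1507 (9.18, -1.15) and 15 (8.28, -2.05), the only arrays below every normal array, and within run on 15 alone. On A46 and 17 Btk was 10.74 and 10.64, above every pre-B array. Plcg2 was low on A992 (9.30, -1.09) and on no array within its run, although 7 run 1 arrays lay below every normal array. It was highest on 117, at 10.94.

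Array 122 had the most low genes, 5, with Cd79a, Cd79b, Blk, Syk and Blnk each below every normal array. Btk at 9.95 and Plcg2 at 10.68 were not low. The same array was the lowest of 16 for Ebf1, the factor that opens the B-cell program (7.27 against a pre-B mean of 11.46), for Pax5 (4.19 against 5.62) and for Rag1 (5.99 against 11.62). Igll1 (6.66), Vpreb1 (9.16) and Vpreb3 (7.49), the surrogate light chain and its relative, were also lowest there. The Pax5 value was at the 25th percentile of all values, 4.19 after rounding. Of the other measured B-lineage markers, Cd74 was 12.93, above the pre-B mean of 11.77. Ms4a1, at 5.92 against a lowest pre-B value of 8.63, was not the lowest of 16. Nor was the heavy chain Ighm, at 12.05 against a lowest pre-B value of 12.66. Array 122 had a summed B-lineage signal of 12.98, inside the pre-B range. Its summed myeloid markers, at 14.25, were the highest of the leukemic arrays and inside the pre-B range. Its plasmacytoid dendritic sum, at 12.09, and its T and NK sum, at 10.87, lay above every pre-B array. Their part in the low values was not tested.

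**Figure D4:**
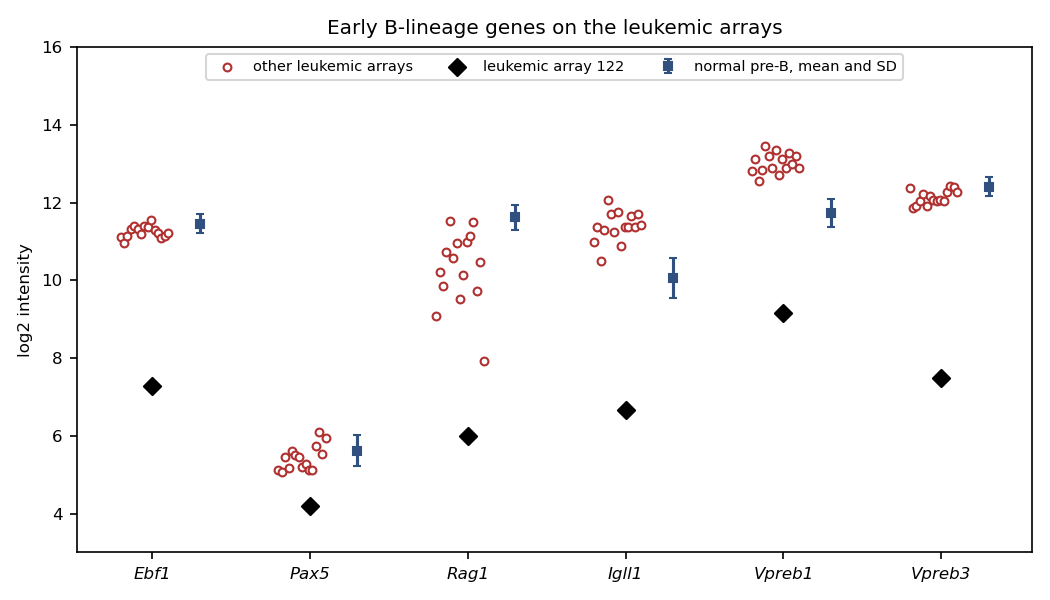
Log2 intensity (y axis) of 6 early B-lineage genes (x axis) on leukemic array 122 (diamond), on the other leukemic arrays (open points) and as the normal pre-B mean with SD (square). Array 122 is the lowest leukemic array for each of these 6 genes, for example 7.27 for Ebf1. It is not the lowest for Cd74, Ms4a1 or Ighm, which are not shown.

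Array 270 gave a contrasting pattern. Its Blk value of 5.18 was the lowest of all arrays and its Blnk value of 7.08 was close to that of array 122, yet Cd79a was 11.66 and Ebf1, Rag1 and Vpreb1 were 11.22, 11.51 and 13.27. Cd79a, Ebf1 and Rag1 lay inside the range of all 8 pre-B arrays, but Cd79a was below the 12.14 of the lowest pre-B array of its own run (-0.55 from their mean). Ms4a1, the CD20 antigen of later B cells, was 4.64 and Cd74, the class II invariant chain, 8.17, both the lowest of the 16 leukemic arrays. Array 15 differed again: Btk was 8.28, the lowest of all arrays, with Blnk at 11.34, the highest leukemic value.

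No difference was called between the 5 arrays of leukemia after pIpC and the other 11 leukemic arrays: 0 of 7 genes and 0% of all genes by limma, with 0 of the 7 and 603 of all genes at an unadjusted p under 0.05. Blnk was 9.24 ± 1.35 (SD, n = 5) with and 9.95 ± 1.42 (n = 11) without pIpC, a difference of -0.71 (interval -2.15 to 0.72). Blk was 8.52 ± 1.97 with and 8.01 ± 1.33 without, a difference of 0.51 (interval -1.08 to 2.09). Both intervals include 0. With 1 array left out the Blnk difference ran from -1.11 (without A1507) to -0.17 (without 270) and the Blk difference from 0.04 (without A992) to 1.34 (without 270).

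Across the 16 leukemic arrays, 21 pairs of genes were compared, and the values share the arrays' RNA and normalization. The values without array 116 or array 122 were added after seeing the data. No pair passed Benjamini-Hochberg adjustment by Pearson's r (5 at an unadjusted permutation p under 0.05), and 2 passed by Spearman's rho, neither of them after quantile normalization. Cd79b and Syk went together (rho = 0.726, permutation p = 0.00206, adjusted 0.0396; r = 0.529, permutation p = 0.0305, adjusted 0.186), with r = 0.825 without arrays 122 and 116 and 0.516 within run 1. That rho was 0.882 without array 116 (permutation p = 5.00e-05, adjusted 0.00105) and 0.671 without array 122 (permutation p = 0.00776), where it no longer passed (adjusted 0.0815). Btk and Blnk ran opposite (rho = -0.694, permutation p = 0.00377, adjusted 0.0396; r = -0.523, permutation p = 0.0354, adjusted 0.186), with r = -0.559 without arrays 15 and A46 and -0.408 within run 1. Its rho was -0.682 without array 116 (permutation p = 0.00622), where it no longer passed (adjusted 0.0653), and -0.761 without array 122 (permutation p = 0.00141, adjusted 0.0296). Cd79a and Cd79b had r = 0.863 (permutation p = 0.0483, adjusted 0.203; rho = 0.047, permutation p = 0.864, adjusted 0.864), and r was -0.196 without array 122 alone and -0.127 without 122 and 154. Run 2 holds 4 leukemic arrays, too few for a value of its own.

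Likeness over all 39 arrays, by Pearson's r as a description, put chain genes next to each other in part. The 3 genes most like Cd79a were Cd79b (0.902), Foxo1 (0.897) and Sbk1 (0.862), and those most like Cd79b were Cd79a, Ralgps2 (0.896) and Foxo1. Blk was closest to Rasgrp1 (0.878), Fcrla (0.866) and Syk (0.838). For Blnk they were Cyp39a1 (0.844), Ctse (0.789) and Kdm6a (0.786), and for Syk Tbx6 (0.901), Ccm2 (0.894) and Trim11 (0.893). For Plcg2 they were Rgs19 (0.888), Actg1 (0.880) and Gmip (0.867), and for Btk Fam43a (0.769), Ighv14-2 (0.756) and Tfeb (0.747). Stage, run and array are shared by all these points. Within the 16 leukemic arrays r was 0.863 for Cd79a and Cd79b (-0.196 without array 122) and 0.442 for Blk and Syk. Within the 23 normal arrays r was 0.945 and 0.873 for these pairs.

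Other parts of the pathway were counted in the same comparison with normal pre-B cells. A list of 13 further measured signalling genes held Plcg1, Rac2 and Map4k1 as well as genes downstream of Plcg2. Of these 13, 6 were lower and 0 higher, against 7.53% and 8.50% of all genes, with a median difference of -0.39. In the fit of run 1, 2 were lower, against 384 of 12393 genes. Rasgrp1, the diacylglycerol-activated exchange factor for Ras, was 7.24, 7.83 and 8.28 in pre-B and 4.04, 5.20 and 6.48 in leukemic arrays, with no overlap. It was 6.27-fold lower (-2.65, SE 0.32, limma adjusted p = 1.23e-06), by -2.42 within run 1 and -3.11 within run 2. Its level in pro-B arrays was 6.01 ± 0.19 (SD, n = 6) and in immature B arrays 9.58 ± 0.28 (n = 6). Itpr2, a calcium channel gated by inositol trisphosphate, fell by 0.87, the NF-kappaB subunit Rel by 0.77 and the GTPase Rac2 by 0.54. Within run 1 none of these 3 was called (-0.95, -0.86 and -0.35), and within run 2 Itpr2 (-0.74) and Rac2 (-0.42) were and Rel (-0.69) was not. With the myeloid covariate Itpr2 (-1.36) was called, and Rel (-0.48) and Rac2 (-0.49) were not. Prkcb, the protein kinase C of the NF-kappaB branch, was not called (-0.67, adjusted p = 0.153), nor was Map4k1 (0.13).

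Of 7 other receptor-proximal kinases, 1 was higher and 1 lower, against 8.50% and 7.53% of all genes. Zap70, the relative of Syk best known from T cells, was 4.28, 4.67 and 5.94 in pre-B and 4.12, 7.24 and 9.15 in leukemic arrays, with 13 of 16 above every pre-B array. It was 4.96-fold higher (2.31, SE 0.51, limma adjusted p = 0.00225), by 2.38 within run 1 and 2.62 within run 2, and pro-B arrays were at 6.47 ± 0.60 (SD, n = 6). Zap70 was 9.15 on array 15 and 8.88 on 270, where the summed T and NK markers, at 8.43 and 8.16, lay below every pre-B array. It was lowest, at 4.12, on 117, where that sum was 10.76 and above every pre-B array. On 122, 153 and A1507 it was 5.91, 6.69 and 8.17, with sums of 10.87, 10.6 and 11.17 above every pre-B array. The part of T and NK cells in the Zap70 values was not tested. Of the T and NK list 2 of 8 markers were lower and 0 higher in the leukemic arrays, with sums of 7.63 to 11.17 against 9.32 to 10.35 in pre-B. Csk, which keeps Src-family kinases inactive, fell by 0.51 (limma adjusted p = 0.033). It was -0.45 and called within run 1, -0.16 and not called within run 2 (adjusted p = 0.518), -0.34 and called with the run as a covariate, and -0.45 and not called with the myeloid covariate (adjusted p = 0.145). Fyn (0.35) and Tec (-0.61) were not called.

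Of 12 adaptor and PI3K genes, 2 were lower and 0 higher, against 7.53% and 8.50% of all genes. Pik3ap1, the adaptor that links the receptor to PI3K, was 2.40-fold lower (-1.26, limma adjusted p = 7.18e-04) with 14 of 16 arrays below every pre-B array, and the catalytic subunit Pik3cg fell by 0.46. Pik3ap1 was called within run 1 (-1.28) and not within run 2 (-0.76, adjusted p = 0.0554), and Pik3cg within run 2 (-0.69) and not within run 1 (-0.47, adjusted p = 0.106). Grb2 (-0.02) and Pik3r1 (-0.16) were not called. Of 15 measured genes listed as regulators of the receptor, not all of them brakes, 3 were higher and 2 lower, against the 8.50% and 7.53% of all genes. Ptpn22, a phosphatase that restrains antigen-receptor kinases, was 5.19, 5.29 and 5.68 in pre-B and 6.80, 9.02 and 10.72 in leukemic arrays, with no overlap. It was 11.62-fold higher (3.54, SE 0.42, limma adjusted p = 9.84e-07), by 3.96 within run 1 and 2.35 within run 2, and pro-B arrays were at 8.42 ± 0.58 (SD, n = 6). Immature B arrays were at 7.1 ± 1.12 (SD, n = 6) and mature B arrays at 9.25 ± 1.08 (n = 3). The share of all genes whose leukemic arrays lay all, or nearly all, above every pre-B array was not counted. Cd72, an inhibitory co-receptor of B cells, was 11.43, 11.88 and 12.31 in pre-B and 6.91, 8.99 and 10.88 in leukemic arrays. It too had no overlap and was 7.47-fold lower (-2.90, SE 0.38, limma adjusted p = 4.05e-06), by -2.60 within run 1 and -3.21 within run 2. Dok3, an inhibitory adaptor, was 11.17, 11.39 and 11.78 in pre-B and 8.47, 9.68 and 10.42 in leukemic arrays, again with no overlap, and it was 3.44-fold lower (-1.78, SE 0.20, limma adjusted p = 4.39e-07). Pag1, the membrane adaptor that recruits Csk, had a 2.20-fold higher mean (1.14, SE 0.13, limma adjusted p = 7.67e-07). Above every pre-B array lay 15 of 16 leukemic arrays. In pro-B arrays (n = 6) Pag1 was 10.72 ± 0.19 (SD), Dok3 9.16 ± 0.61 and Cd72 10.65 ± 0.79. The leukemic means were 10.72, 9.63 and 8.98. Of the 4 measured receptor partners, 1 was higher and 0 lower, against 8.50% and 7.53% of all genes. This was Vpreb1, at 1.04 (limma adjusted p = 0.0354), with 15 of 16 arrays above every pre-B array, at 1.28 without array 122, and not called within run 1 (1.14, adjusted p = 0.227) or with the myeloid covariate (0.63, adjusted p = 0.301). The heavy chain Ighm, which both receptors share, was not called (-0.52, limma adjusted p = 0.134) and ranged from 10.72 to 13.43 in leukemic arrays. The medians of these lists ran from -0.51 to 0.25, against -0.007 for all genes.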

How the data were processed

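Expression was measured on Affymetrix arrays of 39 samples, 23 normal and 16 leukemic. Per the labels' protocols, RNA was extracted with Trizol, and 20 ng was amplified and labelled with the NuGEN Ovation system. The deposited intensity values, 1 per probe set and array, were made by the authors with RMA, a tool named in the submitters' processing notes without a version. Whether all arrays were normalized jointly is not given in the sources used here. The linear values (3.39 to 18549) were converted to log2 with no offset, and array medians were 6.36 to 6.76. There is no read depth, so precision rests on the number of arrays.

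Of 22690 probe sets, 64 controls, 691 with several symbols and 1555 with none were left out, which gave 20380 probe sets of 12393 genes. Symbols came from the platform annotation. No arrays were identical (highest r 0.9972). The genes and lists were chosen with earlier results of these data known. Of each list, up to 4 called genes with the largest difference and 2 uncalled with the highest mean could be named.

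Groups were compared with limma 3.58.1 in R 4.3.3 (lmFit, eBayes with an intensity trend): leukemic with pre-B or pro-B arrays alone, the normal steps in 1 fit of the 23 normal arrays. On simulated data with 100 of 12393 genes shifted by each size, the leukemic against pre-B fit recovered 68 at 1 log2 unit and 95 at 2, with 10 false calls. Recovery and false calls were not tested for a spread that differs between the groups. Among the measured genes, the SD of Blk was 1.51 in leukemic and 0.42 in pre-B arrays. That of Blnk was 1.40 and 0.19. Pairs of genes were tested with 100000 permutations, two-sided. Since the labels do not say that normal arrays came from separate animals, a p-value here reflects sample spread that may be technical.

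Tried as alternatives were quantile normalization, removal of the dimmest 40% of genes, other choices of probe set, 1 fit of all 39 arrays, no intensity trend, accession run as a covariate or alone, a replicate block, the myeloid marker mean as a covariate, and each array left out in turn. Over 27 pairs of normal arrays with the same replicate number, deviations from the stage means correlated at -0.744 to 0.661, with 16 over 0.1, so the numbers were not taken to pair the arrays.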

Additional observations from a re-analysis of the deposited data

How the results depend on the processing

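Leukemic against pre-B kept 4 called genes in all 24 fits with 1 array left out and in the other alternatives except within accession run 1 (2 called), within run 2 (5, with Cd79a) and with all 39 arrays in 1 fit (5, with Btk at -0.48, limma adjusted p = 0.0459). Against pro-B, the 0 calls became 1 with the mean of all probe sets (Syk -0.56), 2 with all 39 arrays in 1 fit, and 0 to 2 with 1 array left out. The 6 calls of pre-B against pro-B became 3 with all 39 arrays in 1 fit and stayed 6 with any array left out. The 2 calls of immature B against pre-B became 1 with all 39 arrays in 1 fit, 1 without the intensity trend, 4 with the run as a covariate and 1 to 3 with 1 array left out. The 47 low combinations became 24 at 2 log2 units.

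None of the differences that changed sign was called. With the myeloid mean as a covariate, Plcg2 was 0.10 against pre-B, and Cd79a -0.54, Cd79b -0.22 and Plcg2 0.35 against pro-B. Btk was -0.08 against pro-B within run 2. Plcg2 in pre-B against pro-B was 0.03 after quantile normalization and -0.10 to 0.09 with 1 array left out. In mature against immature B, with the run as a covariate, Cd79a was -0.28, Cd79b -0.08, Blk -0.04, Syk -0.08 and Plcg2 -0.21, and Plcg2 was -0.03 to 0.13 with 1 array left out. By pIpC, with 1 array left out, Cd79b was -0.02 to 0.27 (lowest without 122) and Plcg2 -0.23 to 0.09 (highest without A992), and Btk was -0.19 within run 1. The cause was not tested.

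With the replicate block, Btk in immature B against pre-B was called (0.28, limma adjusted p = 0.0467), Plcg2 in pre-B against pro-B was 0.10, and in mature against immature B Cd79a was -0.24, Cd79b -0.10, Blk -0.003, Syk -0.08 and Plcg2 -0.16. It changed no other call of the 7 genes. Same-numbered arrays lay in 1 run in 25 of 27 pairs. Of 448 values under other settings, 411 kept direction and side of the threshold; of 917 with 1 array left out, 893 did.

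All members lay above the dim limit of 4.19 on every array. That limit is a percentile of all values and no detection call was made, so signal over background was not measured. The 16 leukemias and 3 mature arrays limit the precision.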
